A study of Homo sapiens with 18 samples.

Results

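The response of the human leukaemia cell line MV4-11 to RMC-4550 was described from 6 RNA-seq libraries of an 18-library series, 3 from cultures with the inhibitor and 3 from cultures with its vehicle DMSO. The libraries were chosen by their labels, and genes with at least 1 CPM (reads per 1e6 of the scaled library) in at least 3 of the 6 libraries were tested, which left 14739 of 40184 gene IDs. MV4-11 is an acute myeloid leukaemia line whose FLT3 receptor gene carries an activating duplication (FLT3-ITD), an allele that both groups therefore share. Treated cultures received 500 nM RMC-4550 and control cultures received DMSO, for 24 h in both cases, in RPMI medium with fetal bovine serum. The other 12 libraries came from Molm-14, also FLT3-ITD, and from SKNO-1, which carries a KIT mutation in place of FLT3-ITD and whose medium also held 10 ng/mL GM-CSF. The labels call the replicates biological, but nothing further says how the cultures were set up, so p-values measure the spread between these samples. MV4-11 is 1 established line, and what is measured in it is not measured in patients.

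RMC-4550 is an allosteric inhibitor that holds the phosphatase SHP2, the product of PTPN11, in a closed, inactive shape. SHP2 relays signals from activated receptor tyrosine kinases such as FLT3 to RAS, which starts the RAF, MEK and ERK kinase cascade. ERK in turn drives transcription of its own feedback inhibitors, of early growth genes and of D-type cyclins. Interferon-stimulated genes are a separate programme, switched on when interferon receptors activate transcription factors that bind a short promoter element called the ISRE.

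The 6 libraries held 17434810 to 19820341 reads each. The share of reads in mitochondrially encoded genes differed within the groups. It was 12.7%, 5.87% and 14.6% in DMSO replicates 1, 2 and 3, and 10.5%, 5.91% and 7.02% in RMC-4550 replicates 1, 2 and 3. The first principal component of the 6 libraries, with 55.0% of the variance, ran from -45.7 to -12.8 in the 3 libraries above 10% and from 22.8 to 37.2 in the 3 below. The second, with 31.5%, ran from -43.2 to -6.03 with DMSO and from 8.97 to 35.6 with RMC-4550. Each result is therefore given from a fit of treatment alone and, where named, from a fit with the mitochondrial share as a covariate. Of 15 matched markers of a myeloid leukaemia line, 13 were at 1 CPM or more in all 6 libraries, and CD68 and MPO were not. The myeloid markers summed to 3599 to 4406 CPM with DMSO and 3973 to 4580 CPM with RMC-4550. The erythroid markers summed to 38.8 to 44.5 and 29.2 to 39.3 CPM in the same order, with HBB, GYPB and AHSP among those at 0 reads throughout, and the lymphoid markers to 57.8 to 66.1 and 59.4 to 69.0 CPM, with CD3D, CD3G and CD2 at 0 reads. The epithelial and stromal markers summed to 158 to 251 and 202 to 251 CPM, with KRT19 at 0 reads. In these bulk samples, fewer cells of a kind and less RNA per cell cannot be told apart.

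With RMC-4550, 328 genes rose, which is 2.23% of the 14739 tested, and 346 fell, which is 2.35% (limma with Benjamini-Hochberg adjustment, adjusted p under 0.05, the threshold used throughout). Genes past the threshold are called. The rises were larger: 43 genes rose and 16 fell by more than 4-fold, and 21 of those 43 were antiviral genes. All 674 called genes had 3 treated libraries on one side of the 3 DMSO libraries, a property shared by 3624 of the 14739 genes. With the mitochondrial share in the model, 1946 genes (13.2%) were higher and 3007 (20.4%) lower, and the 674 genes were all called again in the same direction. These shares are the background for every count of list members with the covariate given below. Leaving out 1 library moved the counts strongly. The calls were 84 higher and 46 lower without DMSO replicate 1, 924 and 890 without DMSO replicate 2, 111 and 64 without DMSO replicate 3, 162 and 162 without RMC-4550 replicate 1, 62 and 32 without RMC-4550 replicate 2, and 45 and 20 without RMC-4550 replicate 3. Of the 674 genes, 43 higher and 17 lower kept their call in each of these 6 fits.

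**Figure D1:**
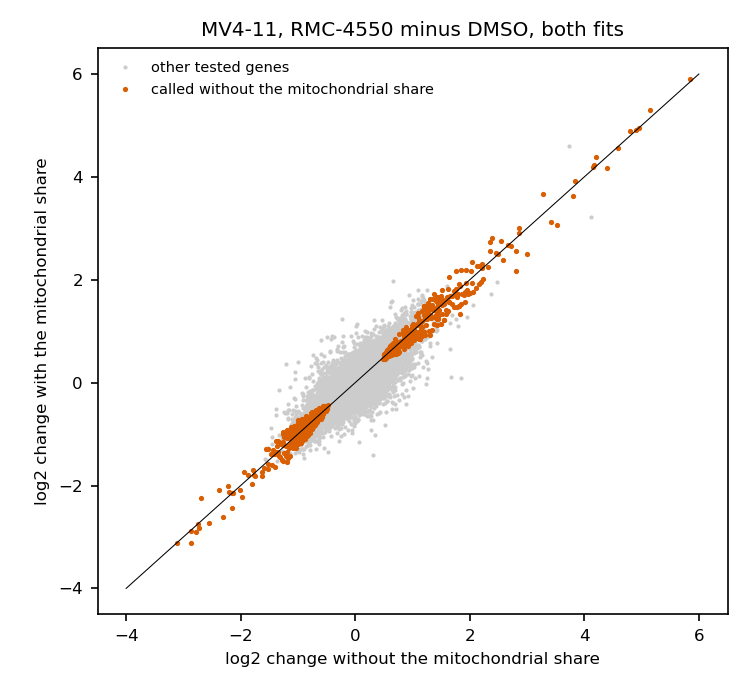
The log2 change of each of 14739 genes in MV4-11, RMC-4550 minus DMSO, without the mitochondrial share (horizontal axis) and with it as a covariate (vertical axis). The line marks equal values, and the 674 genes called without the covariate (orange) lie on the same side of 0 on both axes.

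The target of the drug and the mutated receptor did not pass the test in the fit of treatment alone. PTPN11 (ENSG00000179295) was at 106, 187 and 110 CPM with DMSO and at 86.5, 128 and 106 CPM with RMC-4550. The groups overlapped, and the log2 change was -0.30 (SE 0.25, limma adjusted p 0.58). With the covariate it was -0.62 and was called. FLT3 (ENSG00000122025) was at 351, 502 and 378 CPM with DMSO and at 504, 623 and 576 CPM with RMC-4550. Each treated library lay above each DMSO library, though the closest pair, 502 and 504 CPM, nearly met, and the log2 change of 0.48 (SE 0.17) did not pass the threshold (limma adjusted p 0.17). With the covariate it was 0.30 and was called.

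The largest rises of single genes were in antiviral interferon-stimulated genes. Of 73 tested members of a list of 81, 50 rose and 0 fell, and the 73 had a median log2 change of 1.20 against -0.01 over all genes tested. The list was chosen with this rise known and is not independent evidence of it. The 12 largest rises among called genes that reached 5 CPM were all of this programme. Their promoters are shown first because the element that interferon-activated factors bind can be read in several of them.

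The RefSeq windows searched were the 250 bases before a gene's start site, on GRCh38.p14, and 10357 of the 14739 tested genes had one. The ISRE core was searched on both strands as 2 copies of GAAA with any 2 bases between them. It was found for 34 of the 55 antiviral genes with a window, which is 61.8%, and for 3.53% of all tested genes with one. Among all 35116 windows of the table it was in 3.02%. Among genes that rose it was in 15.7%, and among genes that fell in 3.77%. The 5 stretches below belong to 5 of the 12 genes with the largest rises and end before the first annotated transcript start of GENCODE 29 in the window, with the ISRE core in capitals. They lie at chr1:78620262-78620381 on the plus strand, chr13:42992272-42992391 on the minus strand, chr10:89327774-89327893 on the plus strand, chr10:89392426-89392545 on the plus strand and chr1:78649669-78649788 on the plus strand, in that order, and none overlaps an exon of GENCODE 29. The IFI44L stretch lies in an intron of a longer model of that gene.
IFI44L: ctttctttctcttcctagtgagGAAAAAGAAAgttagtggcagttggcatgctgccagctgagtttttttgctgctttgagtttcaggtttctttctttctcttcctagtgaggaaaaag
EPSTI1: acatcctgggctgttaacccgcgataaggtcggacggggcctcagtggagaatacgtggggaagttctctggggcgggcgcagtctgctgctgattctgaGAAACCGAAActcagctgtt
IFIT3: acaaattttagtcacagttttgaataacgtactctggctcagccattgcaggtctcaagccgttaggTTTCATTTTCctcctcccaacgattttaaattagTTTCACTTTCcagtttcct
IFIT1: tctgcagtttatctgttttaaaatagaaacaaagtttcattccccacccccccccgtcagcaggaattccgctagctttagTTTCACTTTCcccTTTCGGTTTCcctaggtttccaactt
IFI44: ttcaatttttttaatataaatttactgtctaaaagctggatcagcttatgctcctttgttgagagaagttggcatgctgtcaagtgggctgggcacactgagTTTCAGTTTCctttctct
IFIT3 and IFIT1 each held 2 matches in the stretch shown, and the others 1. Only genes with a match in such a stretch could be shown. OAS3 also had 1 and is not shown, and the rest of the 12 had no match there or no window. A match describes the letters and does not show that a factor was bound.

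IFI44L, which encodes an interferon-induced protein, had the largest rise. It was at 0.269, 0.460 and 0.598 CPM with DMSO and at 30.2, 25.0 and 22.7 CPM with RMC-4550. The treated libraries were all far above the DMSO libraries, by 57.5-fold in the fit (log2 change 5.85, SE 0.30, limma adjusted p 0.00015, and 5.91 with the covariate). Next to it on chromosome 1, IFI44 went from 0.430, 0.716 and 0.838 CPM to 16.3, 17.1 and 14.7 CPM, a log2 change of 4.59 (SE 0.27, limma adjusted p 0.00033).

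The IFIT genes encode proteins that bind foreign RNA ends and block its translation. IFIT1 (chromosome 10, 89392546 to 89406486 on GRCh38) was at 1.08, 0.972 and 1.08 CPM with DMSO and at 34.2, 30.3 and 25.1 CPM with RMC-4550 (log2 change 4.80, SE 0.17, limma adjusted p 6.1e-05). IFIT3 went from 1.20 ± 0.0554 to 36.8 ± 4.36 CPM (SD, n = 3), a log2 change of 4.90, and IFIT2 from 1.60 ± 0.539 to 28.8 ± 1.82 CPM, a log2 change of 4.20. In all 3 genes the spread within a group was small beside the difference between groups.

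The OAS enzymes sense double-stranded RNA and activate an RNase, and MX1 is a GTPase that traps viral nucleocapsids. OAS2 was at 9.52, 12.4 and 9.58 CPM with DMSO and at 124, 159 and 158 CPM with RMC-4550 (log2 change 3.81, SE 0.16, limma adjusted p 9.1e-05, and 3.63 with the covariate). OAS3 rose by 4.39, OASL by 4.16 and MX1 by 4.17 on the log2 scale. CMPK2, a mitochondrial nucleotide kinase next to RSAD2 in the genome, rose by 3.52, from 3.01 ± 1.34 to 34.1 ± 10.4 CPM (SD, n = 3). EPSTI1 rose by 4.96, from only 0.200 ± 0.0183 to 7.09 ± 1.11 CPM. SIGLEC1, the sialic acid receptor of activated macrophages, rose by 5.15, from 0.344 ± 0.168 to 12.5 ± 1.91 CPM. These 12 genes kept their calls when any 1 of the 6 libraries was left out.

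**Figure D2:**
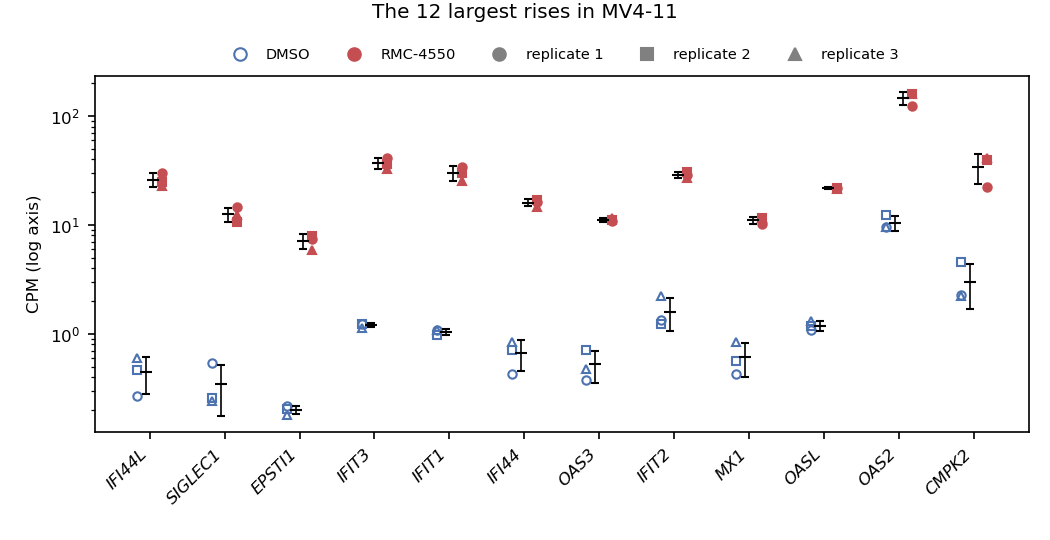
CPM on a log axis for the 12 largest rises in each MV4-11 library, with DMSO (open blue) and RMC-4550 (filled red). Symbols mark the replicate and black bars the mean and SD of 3 libraries, and every treated library lies above every DMSO library, from 5.84 against at most 0.215 CPM for EPSTI1 to 124 against at most 12.4 CPM for OAS2.

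The summed level of the 81 antiviral genes was 2539, 2758 and 2506 CPM with DMSO and 4873, 5207 and 5266 CPM with RMC-4550. Each treated sum exceeded each DMSO sum, both above and below 10% mitochondrial reads. With the covariate, 67 of the 73 were higher, 0 were lower and the median was 1.13. Leaving out 1 library gave 29 (DMSO replicate 1), 61 (DMSO replicate 2), 33 (DMSO replicate 3), 44 (RMC-4550 replicate 1), 26 (RMC-4550 replicate 2) and 26 (RMC-4550 replicate 3) members that rose.

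Genes that carry the interferon signal rose in part. Of 31 tested genes for interferons, their receptors and their signalling, 6 rose and 0 fell, with a median log2 change of 0.23, and with the covariate 12 were called higher and 1 lower. IRF7, which drives interferon genes, was at 77.1, 48.1 and 76.5 CPM with DMSO and at 192, 132 and 155 CPM with RMC-4550. It was lowest in replicate 2 of both groups, and each treated library exceeded each DMSO library (log2 change 1.26, SE 0.22, limma adjusted p 0.026, and 1.55 with the covariate). USP18, which dampens the receptor, rose by 1.78 and SOCS1, a feedback inhibitor of JAK kinases, by 1.26 on the log2 scale. IRF9, a DNA-binding interferon response factor, and MYD88, a Toll-like receptor adaptor, rose by 1.06 and 0.84 and were named after their values were seen. USP18 lost its call without DMSO replicate 1 or 3 or RMC-4550 replicate 2 or 3, with changes of 1.59 to 1.74. SOCS1 lost its call without DMSO replicate 1 or 3 or RMC-4550 replicate 3 (1.21 to 1.36). IRF7 and IRF9 lost theirs in every fit without 1 library except that without DMSO replicate 2 (0.94 to 1.39).

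Transcripts of the interferon genes looked up were near absent, and none of these genes was tested. IFNB1, the gene of interferon beta, had 0, 0 and 2 reads in the DMSO libraries and 4, 6 and 4 reads in the RMC-4550 libraries. The other interferon genes looked up (IFNA5, IFNA8, IFNA17, IFNA21, IFNW1, IFNK, IFNL1, IFNL3 and IFNL4) had at most 1 read in any library. With 3 reads or fewer in a library taken as the floor, only the treated libraries of IFNB1 exceeded it, and no fold is given. This floor covers counting error only.

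MHC class II antigen presentation held 9 of the other rises. Class II molecules display peptides to CD4+ T cells, and CIITA is the coactivator that switches their genes on. Of 15 tested members, 9 rose and 0 fell, and the median log2 change was 1.19. CIITA was at 33.3, 35.2 and 22.4 CPM with DMSO and at 71.4, 101 and 106 CPM with RMC-4550, with no overlap (log2 change 1.62, SE 0.22, limma adjusted p 0.012). HLA-DRA, the alpha chain of HLA-DR, was at 18.5, 18.1 and 24.5 CPM with DMSO and at 93.2, 74.5 and 78.8 CPM with RMC-4550 (log2 change 2.02, SE 0.16, limma adjusted p 0.0016, and 2.17 with the covariate). The treated libraries were all more than 3 times as high as the highest DMSO library. HLA-DPA1 rose by 2.21 and HLA-DRB1 by 1.47 on the log2 scale. Reads can be split between HLA-DRB1 and its close copies, so its level is uncertain. CIITA lost its call without DMSO replicate 1 or RMC-4550 replicate 2 or 3 (1.51 to 1.70). With the covariate 12 of the 15 were called higher and 0 lower, and the median was 1.35, above the 1.13 of the antiviral list in that fit. Without 1 library the count was 4 (DMSO replicate 1), 11 (DMSO replicate 2), 5 (DMSO replicate 3), 5 (RMC-4550 replicate 1), 4 (RMC-4550 replicate 2) and 4 (RMC-4550 replicate 3).

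Few MHC class I genes passed the test. Of 22 tested genes for class I molecules and their peptide loading, 0 rose and 1 fell, with a median of 0.07, and 2 were called in each direction with the covariate. The gene that fell was NLRC5, the class I coactivator, at 75.3, 67.7 and 78.8 CPM with DMSO and 50.5, 48.0 and 49.9 CPM with RMC-4550 (log2 change -0.58, SE 0.11, limma adjusted p 0.033). It stayed below in each treated library, but its call was kept in only 1 of the 6 fits without a library, that without DMSO replicate 2, and the changes in the other 5 ran from -0.59 to -0.53.

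Of 8 tested MAPK output genes, whose transcripts are used to report ERK activity, 5 fell and 0 rose, and the median log2 change was -1.03. SPRY4, a Sprouty protein that blocks receptor signals to RAS, was at 6.51, 7.93 and 4.73 CPM with DMSO and at 0.951, 0.759 and 1.57 CPM with RMC-4550. This was the steepest fall of the list, 5.87-fold in the fit (log2 change -2.55, SE 0.33, limma adjusted p 0.0088). ETV4, an ETS transcription factor of the PEA3 group, fell from 10.1, 12.7 and 8.98 CPM to 2.96, 3.90 and 3.35 CPM (log2 change -1.63, SE 0.19, limma adjusted p 0.0072). PHLDA1, CCND1, the cyclin D1 gene, and DUSP6, the phosphatase that inactivates ERK, also fell, with log2 changes of -1.12, -1.17 and -0.93.

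The other 3 members did not pass the test in the fit of treatment alone. ETV5 was at 28.9, 55.2 and 23 CPM with DMSO and at 12.8, 20.6 and 21 CPM with RMC-4550 (log2 change -0.91, limma adjusted p 0.21). DMSO replicate 2 was the highest library, and the groups did not overlap. SPRY2 had a log2 change of -0.71 and DUSP4 of -0.38, without a call. With the covariate all 8 members were called lower, the median was -1.31 and ETV5 was at -1.38. The number called without 1 library was 2 (DMSO replicate 1), 5 (DMSO replicate 2), 3 (DMSO replicate 3), 4 (RMC-4550 replicate 1), 3 (RMC-4550 replicate 2) and 1 (RMC-4550 replicate 3). SPRY4 lost its call without DMSO replicate 1 (-2.52), ETV4 and PHLDA1 without RMC-4550 replicate 3 (-1.62 and -1.12), DUSP6 without DMSO replicate 1 or 3 or RMC-4550 replicate 2 or 3 (-0.90 to -0.82), and CCND1 in every fit but that without DMSO replicate 2 (-1.29 to -1.02).

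**Figure D3:**
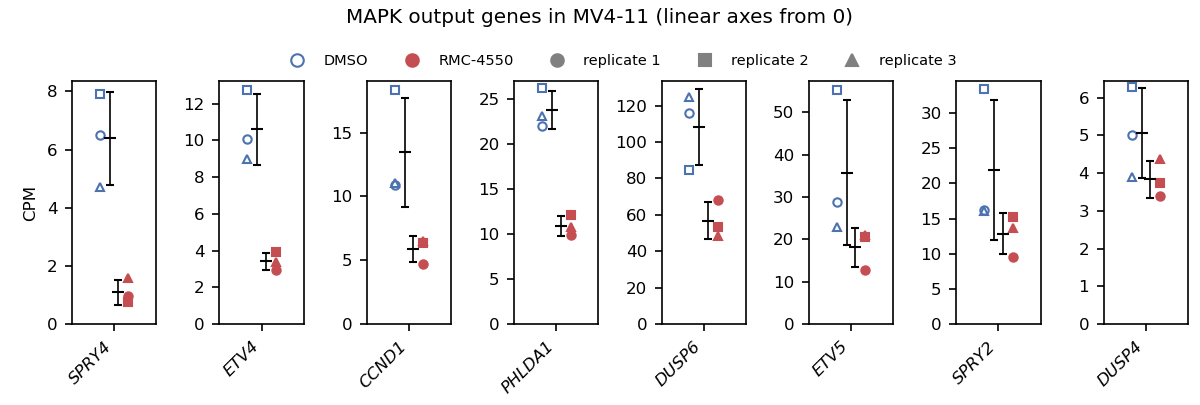
CPM of the 8 tested MAPK output genes in each MV4-11 library, on linear axes from 0, with DMSO (open blue) and RMC-4550 (filled red), symbols for the replicate, and black bars for the mean and SD of 3 libraries. SPRY4 goes from 6.39 ± 1.60 to 1.09 ± 0.426 CPM, while in DUSP4 the groups overlap.

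Of 33 tested ERK feedback and early genes outside that list, 0 rose and 0 fell (limma). ETV1 had a log2 change of -1.37 and PHLDA2 of -0.95, the 2 smallest p of the list (adjusted p 0.056 and 0.074). With the covariate, 5 were called higher and 9 lower, beside 13.2% and 20.4% of all tested genes. Of 36 core genes from receptor adaptors to ERK, 5 were called higher and 15 lower with the covariate, and in the fit of treatment alone 1 rose and 1 fell: RASGRP4, a RAS exchange factor of myeloid cells, by 0.71, and RASA2, a GTPase-activating protein that turns RAS off, from 35.0 to 21.7 mean CPM, a log2 change of -0.69. RASGRP4 lost its call without DMSO replicate 1 or 3 or RMC-4550 replicate 2 or 3 (0.61 to 0.74), and RASA2 in every fit but that without DMSO replicate 2 (-0.78 to -0.64).

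Among 32 tested receptor kinase and cytokine receptor genes, 3 rose and 1 fell, and with the covariate 6 were called higher and 7 lower. That fit called 13.2% of all tested genes higher and 20.4% lower. AXL, a receptor kinase for GAS6, was at 9.63, 16.4 and 10.4 CPM with DMSO and at 30.7, 47.6 and 52.3 CPM with RMC-4550. The groups did not overlap (log2 change 1.85, SE 0.27, limma adjusted p 0.015), and the change was 1.52 with the covariate. CSF1R, the M-CSF receptor, rose by 1.20 and LTK by 1.31 on the log2 scale. The gene that fell was FLT4, a receptor for VEGF-C, from 3.94 to 1.90 mean CPM, below the level set for named genes and chosen after its value was seen. AXL and CSF1R lost their calls without DMSO replicate 1 or 3 or RMC-4550 replicate 2 or 3 (1.70 to 1.76 and 1.09 to 1.15), and LTK in every fit but that without DMSO replicate 2 (1.18 to 1.47).

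STAT5 is a transcription factor that FLT3-ITD is known to activate directly. Of 16 tested STAT5 targets, 6 rose and 0 fell, and the median log2 change was 0.41. With the covariate 7 were called higher and 1 lower, and the median was 0.25. IL2RA, the alpha chain of the IL-2 receptor, was at 1.35, 2.51 and 2.09 CPM with DMSO and at 7.66, 10.3 and 9.54 CPM with RMC-4550 (log2 change 2.23, SE 0.26, limma adjusted p 0.007, and 2.02 with the covariate). CISH, a feedback inhibitor of cytokine receptors, was at 68.8, 74.6 and 66.8 CPM and at 137, 137 and 152 CPM in the same order (log2 change 1.02, SE 0.11, limma adjusted p 0.0051). Each treated library of both genes lay above each DMSO library. PIM2, a survival kinase, rose by 0.64. IL2RA lost its call without RMC-4550 replicate 2 or 3 (2.14 to 2.19), CISH without RMC-4550 replicate 3 (0.97), and PIM2 in every fit but that without DMSO replicate 2 (0.58 to 0.69). SOCS1, also an interferon target, was on this list as well. PIM1, a related kinase, and SOCS2 complete the 6. Without 1 library the number that rose was 2 without DMSO replicate 1 or 3 or RMC-4550 replicate 2, 7 without DMSO replicate 2, 3 without RMC-4550 replicate 1 and 0 without RMC-4550 replicate 3.

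Of 32 tested NF-kB and inflammatory cytokine genes, 0 rose and 4 fell, with a median of 0.08. With the covariate 7 were called higher and 9 lower, and the median was -0.07. TNF, the cytokine gene (chromosome 6, 31575567 to 31578336 on GRCh38), was at 92.1, 79.4 and 88.2 CPM with DMSO and at 19.5, 18.5 and 18.4 CPM with RMC-4550. The treated libraries were nearly equal and far below the others (log2 change -2.20, SE 0.11, limma adjusted p 0.00015, and -2.13 with the covariate). GPR84, a receptor for medium-chain fatty acids on activated myeloid cells, had the largest fall among called genes that reached 5 CPM, from 16.8, 16.5 and 15.6 CPM to 2.22, 2.13 and 2.28 CPM (log2 change -2.87, SE 0.14, limma adjusted p 0.00015). Both kept their calls in each fit without a library. IL1B (mean CPM 1.80 to 0.529) and CCL3L3 (2.89 to 1.17) complete the 4 and were named after their values were seen.

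The other large falls did not belong to 1 list. OCSTAMP, a membrane protein needed for osteoclast fusion, was at 7.0, 7.11 and 7.84 CPM with DMSO and at 0.951, 1.16 and 1.12 CPM with RMC-4550 (log2 change -2.74, SE 0.18, limma adjusted p 0.00072). The homeobox genes DLX1 and DLX2, neighbours on chromosome 2, both fell. DLX1 went from 61.6, 57.5 and 64.2 CPM to 19.3, 16.1 and 17.8 CPM, a log2 change of -1.78 (limma adjusted p 0.00072), and DLX2 from 18.6 ± 1.04 to 6.19 ± 1.02 CPM (SD, n = 3), a log2 change of -1.59. MLPH, the melanophilin gene, the pseudogene ANKRD18DP and the actin-binding protein gene ENC1 fell, with log2 changes of -1.95, -1.86 and -1.81. The ID ENSG00000286755, with no symbol, fell too, with a log2 change of -1.56. MLPH lost its call without RMC-4550 replicate 3 (-1.91), and ENSG00000286755 without DMSO replicate 1 or 3 or RMC-4550 replicate 2 or 3 (-1.53 to -1.35). OCSTAMP, DLX1, DLX2, ANKRD18DP and ENC1 kept theirs in each of the 6 fits.

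MIR222HG, the host transcript of the microRNAs miR-221 and miR-222, was at 11.8, 6.50 and 11.1 CPM with DMSO and at 2.17, 2.02 and 1.32 CPM with RMC-4550. DMSO replicate 2 was the lowest control and still above each treated library (log2 change -2.38, SE 0.30, limma adjusted p 0.0086). The call was lost without DMSO replicate 1 or RMC-4550 replicate 3 (-2.23 to -2.17). Polyadenylated RNA was sequenced, so the mature microRNAs were not measured. Their RefSeq sequences are shown because the pair shares its seed, bases 2 to 8, in capitals. They lie on the minus strand of GRCh38.p14 at chrX:45746180-45746202 and chrX:45747036-45747056.
hsa-miR-221-3p: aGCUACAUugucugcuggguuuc
hsa-miR-222-3p: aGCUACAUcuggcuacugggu

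Genes of DNA replication and of mitosis fell in 25 of 67 and 35 of 65 tested members, and 0 rose in either list. The list called replication here also holds cyclin, CDK and E2F genes of the G1/S transition, the step into replication. The medians were -0.63 and -0.81 on the log2 scale. CDC45, part of the replicative helicase, was at 35.5, 37.2 and 36.3 CPM with DMSO and at 18.1, 14.6 and 13.1 CPM with RMC-4550 (log2 change -1.26, SE 0.15, limma adjusted p 0.0068). CLSPN, a replication checkpoint adaptor, and POLA2, a subunit of DNA polymerase alpha, fell with log2 changes of -1.16 and -1.22. CCND1 was the fourth named gene of that list.

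In mitosis, 3 of the 4 largest named falls were subunits of the NDC80 complex, which ties kinetochores to microtubules. NUF2 was at 35.9, 33.6 and 38.4 CPM with DMSO and at 16.6, 12.9 and 11.1 CPM with RMC-4550 (log2 change -1.43, SE 0.17, limma adjusted p 0.0073). SPC25, SPC24 and the kinesin gene KIF14 fell with log2 changes of -1.32, -1.25 and -1.20. Treated libraries were below the DMSO libraries in each of these genes. NUF2 and CDC45 lost their calls without RMC-4550 replicate 2 or 3 (-1.40 to -1.29 and -1.24 to -1.16), SPC25 also without DMSO replicate 3 (-1.44 to -1.30), CLSPN, POLA2 and SPC24 without DMSO replicate 1 or 3 or RMC-4550 replicate 2 or 3 (-1.25 to -1.09), and KIF14 in every fit but that without DMSO replicate 2 (-1.36 to -1.06).

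With the covariate, 63 replication and 63 mitosis genes were called lower and 0 higher. The counts of replication and mitosis genes without 1 library were 2 and 5 (DMSO replicate 1), 33 and 44 (DMSO replicate 2), 3 and 10 (DMSO replicate 3), 14 and 21 (RMC-4550 replicate 1), 1 and 1 (RMC-4550 replicate 2) and 1 and 2 (RMC-4550 replicate 3). Among the 3 libraries above 10% mitochondrial reads the list medians were -0.64 and -0.74, and among the 3 below they were -0.81 and -0.995.

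Promoters of these genes hold other elements. The cell cycle homology region, TTTGAA on either strand, was in the window of 29 of 54 mitosis genes (53.7%), 12% of all tested genes with a window and 13.3% of all windows. It was also in 15.3% of genes that rose, 20.8% of genes that fell and 5 of 12 MHC class II genes (41.7%), so it was not particular to mitosis genes. The E2F site written TTTCCCGC, searched on both strands, was in 12 of 54 replication genes (22.2%), 2.79% of all tested genes and 1.39% of all windows. The stretches of TOP2A and ESPL1 show the cell cycle homology region and that of HELLS the E2F site TTTCCCGC, with the match in capitals. Among called genes of their lists with a match in the stretch they had the largest falls, and they were named after their values were seen. They lie at chr17:40417951-40418070 on the minus strand, chr12:53268179-53268298 on the plus strand and chr10:94545668-94545787 on the plus strand.
TOP2A: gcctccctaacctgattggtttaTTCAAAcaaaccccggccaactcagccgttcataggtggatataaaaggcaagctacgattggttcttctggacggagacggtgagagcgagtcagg
ESPL1: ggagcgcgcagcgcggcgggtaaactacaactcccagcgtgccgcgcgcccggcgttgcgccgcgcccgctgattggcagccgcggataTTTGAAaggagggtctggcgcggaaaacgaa
HELLS: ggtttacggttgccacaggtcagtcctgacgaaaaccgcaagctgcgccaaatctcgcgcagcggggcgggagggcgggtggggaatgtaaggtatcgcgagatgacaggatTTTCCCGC
TOP2A, which untangles DNA, went from 300 to 145 mean CPM, ESPL1, the separase gene, from 53.4 to 27.5 and HELLS, a chromatin remodeller, from 76.0 to 38.2, with log2 changes of -1.06, -0.96 and -0.99.

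**Figure D4:**
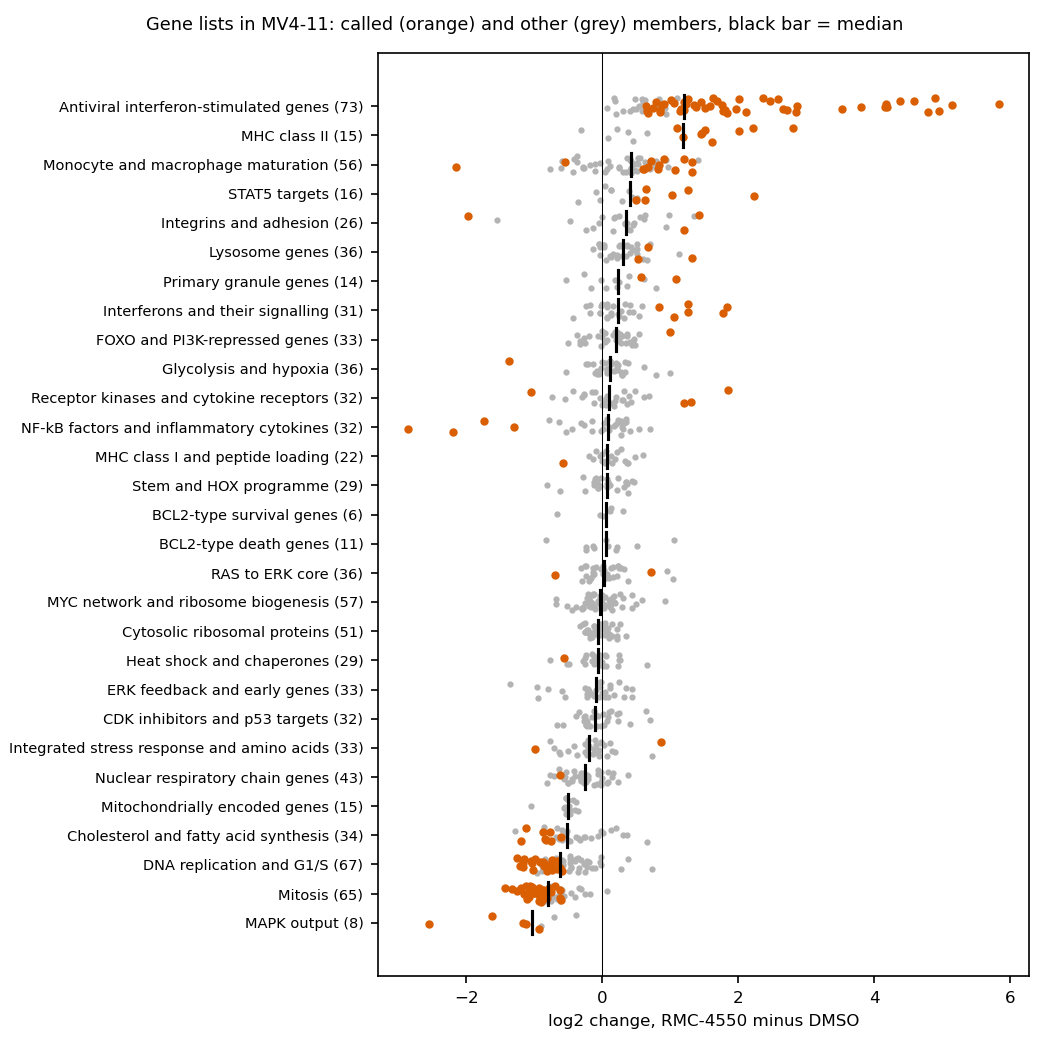
The log2 change, RMC-4550 minus DMSO, of each tested member of the gene lists with 5 or more tested members in MV4-11 (marker lists left out), called members in orange, other members in grey and the list median as a black bar, with the number tested in parentheses. Antiviral genes reach 5.85 and have a median of 1.20, and the lowest medians are those of MAPK output (-1.03) and mitosis (-0.81).

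Of 32 tested genes of CDK inhibition and the p53 response, 0 were called in either direction (limma, with 2766 of all 14739 genes at an unadjusted p under 0.05), and 2 were called higher and 11 lower with the covariate. DDB2, a DNA damage sensor, had a log2 change of -0.57 and GADD45A of -0.66, the smallest p of the list (adjusted p 0.062 and 0.092). BCL2 family genes, which set the threshold for cell death, were not called either. Of 6 survival genes, 0 passed the test, and 0 were called higher and 2 lower with the covariate, BCL2 (-0.26) and BCL2A1 (-0.56). BCL2 was at 41.2, 75.8 and 40.2 CPM with DMSO and at 42.3, 66.1 and 56.8 CPM with RMC-4550, with groups that overlapped. The log2 changes of BCL2, MCL1, BCL2L1, BCL2L2, BCL2L10 and BCL2A1 were 0.11, -0.03, 0.12, 0.01, 0.31 and -0.66. Of 11 death genes, 0 passed, and with the covariate 2 were called higher and 1 lower. BCL2L11, which encodes BIM, an ERK-controlled activator of apoptosis, was at 20.8, 34.6 and 15.1 CPM with DMSO and at 31.7, 58.3 and 53.5 CPM with RMC-4550. RMC-4550 replicate 1 lay below the highest DMSO library, and the log2 change of 1.06 (SE 0.34) was not called (limma adjusted p 0.15), but was 0.60 and called with the covariate. BMF had a log2 change of 0.51 (limma adjusted p 0.1) and of 0.37 with the covariate, where it was called. The other 9 (BAD, BAK1, BAX, BBC3, BCL2L15, BID, BIK, HRK and PMAIP1) lay between -0.83 and 0.21, and of these BAK1 was called lower with the covariate (-0.50).

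Genes of monocyte and macrophage maturation shifted in part. Of 56 tested, 11 rose and 2 fell, with a median log2 change of 0.42. CD86, a co-stimulatory ligand for T cells, was at 6.51, 7.62 and 6.64 CPM with DMSO and at 19.3, 17.7 and 15.1 CPM with RMC-4550 (log2 change 1.32, SE 0.15, limma adjusted p 0.0065). GPNMB, a lysosomal glycoprotein, rose by 1.31 and the scavenger receptor CD36 by 1.07. CD86 lost its call without RMC-4550 replicate 2 (1.30) and CD36 without DMSO replicate 1 or 3 or RMC-4550 replicate 2 or 3 (0.92 to 1.05), while GPNMB kept its call in each of the 6 fits. CSF1R, described above, was the fourth of the named rises. TLR2, a receptor for bacterial lipopeptides, fell with a log2 change of -0.55, and its call was lost in every fit but that without DMSO replicate 2 (-0.61 to -0.50). S100A9, a calcium-binding protein of neutrophils and monocytes, fell from 3.32 to 0.701 mean CPM and was named after its value was seen. With the covariate, 29 were called higher and 7 lower. Without 1 library the number that rose was 2 (DMSO replicate 1), 22 (DMSO replicate 2), 2 (DMSO replicate 3), 7 (RMC-4550 replicate 1), 1 (RMC-4550 replicate 2) and 2 (RMC-4550 replicate 3).

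Smaller groups of myeloid genes held few calls without the covariate. With it, 8 of 14 primary granule genes were called higher and 1 lower, 10 of 26 integrin and adhesion genes higher and 5 lower, and 11 of 36 lysosome genes higher and 0 lower. In the fit of treatment alone, of 14 primary granule genes, 2 rose: CTSG, the cathepsin G gene, from 32.7, 37.4 and 33.2 CPM to 65.0, 77.8 and 77.7 CPM (log2 change 1.09, SE 0.13, limma adjusted p 0.0067), and PRSS57 by 0.57. CTSG lost its call without RMC-4550 replicate 2 or 3 (1.05), and PRSS57 in every fit but that without DMSO replicate 2 (0.49 to 0.64). Of 26 integrin and adhesion genes, 2 rose and 1 fell. SELPLG, the P-selectin ligand, rose by 1.20. SELPLG lost its call without DMSO replicate 1 or 3 or RMC-4550 replicate 2 or 3 (1.10 to 1.17). ITGB5 fell from 4.22 to 1.03 mean CPM, named after its value was seen. Of 36 lysosome genes, 3 rose, GPNMB and the cathepsins CTSZ and CTSB, the last by 0.67 and 0.52. CTSZ and CTSB lost their calls in every fit but that without DMSO replicate 2 (0.48 to 0.69). Of the 5 tested lymphoid markers 1 fell, TRAC, from 4.80 to 0.994 mean CPM, named after its value was seen. Of 29 stem cell and HOX genes, 0 were called (limma), and 3 were called in each direction with the covariate. DOT1L, a histone methyltransferase of KMT2A-driven leukaemia, had a log2 change of -0.62 and GATA2 of -0.81, the smallest p of that list (adjusted p 0.072 and 0.085).

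Cholesterol and fatty acid synthesis, 1 list, was the metabolic group with the most calls. Of 34 tested genes, 8 fell and 0 rose, with a median of -0.53. HMGCS1, which makes the precursor of mevalonate, was at 83.6, 149.6 and 80.4 CPM with DMSO and at 36.1, 52.8 and 43.7 CPM with RMC-4550 (log2 change -1.20, SE 0.26, limma adjusted p 0.049). DMSO replicate 2 was the highest, as in ETV5, and the groups did not overlap. MSMO1, a sterol oxidase, fell from 73.7, 88.7 and 81.3 CPM to 39.0, 37.2 and 35.0 CPM (log2 change -1.13, SE 0.12, limma adjusted p 0.0048). HSD17B7 and DHCR7, sterol reductases, fell with log2 changes of -0.88 and -0.84. HMGCS1 and DHCR7 lost their calls in every fit but that without DMSO replicate 2 (-1.36 to -1.06 and -0.94 to -0.70), HSD17B7 without DMSO replicate 1 or 3 or RMC-4550 replicate 2 or 3 (-0.91 to -0.82), and MSMO1 without RMC-4550 replicate 3 (-1.09). With the covariate, 28 were called lower and 2 higher. Without 1 library the number that fell was 1 without DMSO replicate 1, DMSO replicate 3 or RMC-4550 replicate 2, 13 without DMSO replicate 2, 2 without RMC-4550 replicate 1 and 0 without RMC-4550 replicate 3.

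Other metabolic and stress groups held at most 2 calls without the covariate. With it, 2 of 33 integrated stress response and amino acid genes were called higher and 22 lower, 0 of 29 heat shock genes higher and 15 lower, and 0 of 43 nuclear respiratory chain genes higher and 13 lower. Glycolysis and hypoxia genes had 3 higher and 8 lower of 36, and FOXO and PI3K-repressed genes 2 higher and 7 lower of 33. Over all tested genes the covariate fit called 13.2% higher and 20.4% lower, so counts near these shares do not set a list apart. In the fit of treatment alone, of 33 integrated stress response and amino acid genes, ATF5, a stress transcription factor, rose by 0.86. PSAT1, a serine synthesis enzyme, fell with a log2 change of -0.98, from 116, 127 and 123 CPM to 64.0, 59.8 and 61.1 CPM. ATF5 lost its call without DMSO replicate 1 or any 1 treated library (0.82 to 0.89), and PSAT1 without RMC-4550 replicate 3 (-0.98). TRIB1 rose by 0.99 as the only call among 33 FOXO and PI3K-repressed genes. It lost its call without DMSO replicate 1 or 3 or RMC-4550 replicate 2 or 3 (0.90 to 1.01). HSP90AA1, a chaperone, fell among 29 heat shock genes (-0.57), CYCS, the cytochrome c gene, among 43 nuclear respiratory chain genes (-0.62), and CA9, a carbonic anhydrase, among 36 glycolysis and hypoxia genes (-1.37), the last named after its value was seen. HSP90AA1 and CYCS lost their calls in every fit but that without DMSO replicate 2 (-0.71 to -0.51).

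Of 57 genes of the MYC network and ribosome biogenesis, 0 were called (limma), with a median of -0.03, and 4 were called higher and 14 lower with the covariate. That fit called 13.2% of all tested genes higher and 20.4% lower. MLXIP had a log2 change of 0.49 and MYCL of 0.92, the smallest p of that list (adjusted p 0.056 and 0.14). Of 51 cytosolic ribosomal protein genes, 0 were called in either fit, and the 2 smallest p belonged to RPS27 (0.26, adjusted p 0.45) and RPL27 (0.21, adjusted p 0.46). Of 15 mitochondrially encoded genes, 0 were called in either fit. Their median of -0.50 became 0.03 with the covariate, which is built from them.

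The MV4-11 response was next compared with that of the other lines, as the difference between the log2 changes in a fit over 18 libraries. In that fit the lines share 1 estimate of a gene's spread, though the spread differs between lines. Both comparisons use the same MV4-11 libraries. Molm-14, a second FLT3-ITD line, had 1 treated library at 15.0% mitochondrial reads and 5 libraries between 5.07% and 6.55%, and the 6 SKNO-1 libraries were between 5.22% and 5.91%. Against Molm-14, the change in MV4-11 was higher for 1228 of 13458 genes (9.12%) and lower for 1392 (10.3%). Against SKNO-1, it was higher for 163 of 13897 (1.17%) and lower for 67 (0.482%). Without DMSO replicate 2 of MV4-11 the counts were 3223 and 2670 against Molm-14 and 638 and 224 against SKNO-1. Against Molm-14 they were 650 and 747 without DMSO replicate 1, 662 and 774 without DMSO replicate 3, 688 and 763 without RMC-4550 replicate 2, and 754 and 864 without RMC-4550 replicate 3, and 1863 and 1953 without RMC-4550 replicate 1.

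Many antiviral genes rose further in MV4-11. Against Molm-14, 45 of 67 tested members had a higher change in MV4-11 and 0 a lower one, with medians of 1.14 in MV4-11 and 0.26 in Molm-14. IFIT1 changed by 4.80 in MV4-11 and 2.02 in Molm-14, a difference of 2.78 (SE 0.23, limma adjusted p 3.4e-06). CMPK2 changed by 3.52 and 0.48, a difference of 3.04 (SE 0.38, limma adjusted p 0.00012). Against SKNO-1, 20 of 72 had a higher change in MV4-11 and 1 a lower one, with medians of 1.20 and 0.82. IFI44L changed by 5.85 and 2.83 (difference 3.02, SE 0.38, limma adjusted p 0.00057). In DMSO cultures IFI44L was at a mean of 0.443 CPM in MV4-11 and 2.27 CPM in SKNO-1, and with RMC-4550 at 26 and 16.4 CPM. With the mitochondrial share, 47 of the 67 members were higher and 0 lower against Molm-14. Against SKNO-1, 30 of the 72 were then higher and 3 lower. Over all genes that fit gave 1315 higher and 1675 lower against Molm-14, and 780 higher and 508 lower against SKNO-1.

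Part of the replication genes fell less in MV4-11. The difference was positive and called for 35 of 67 genes against Molm-14 and 22 of 67 against SKNO-1, and negative and called for 0 in both, with medians of -0.63 in MV4-11, -1.25 in Molm-14 and -1.30 in SKNO-1. Among MYC network and ribosome biogenesis genes the difference from Molm-14 was positive for 34 of 57 and negative for 3, with medians of -0.03 and -0.83, and from SKNO-1 it was positive for 7 and negative for 0 (median in SKNO-1 -0.48). Heat shock genes showed 17 of 28 positive differences from Molm-14 and cholesterol and fatty acid synthesis genes 17 of 34, with 0 and 2 negative. From SKNO-1 the positive counts were 0 of 29 and 1 of 34, and the negative counts 0 and 0. MAPK output genes differed in 2 of 8 against Molm-14 and 2 of 7 against SKNO-1, with each of these changes higher in MV4-11. MHC class II genes differed in 4 of 9 against Molm-14, higher in MV4-11, and in 0 of 14 against SKNO-1, where the median change was 1.88 against 1.32 in MV4-11. The SKNO-1 counts depended on the fit. With the mitochondrial share, positive and negative calls were 39 and 0 (replication), 29 and 0 (MYC) and 6 and 0 (heat shock). They were 3 and 4 (cholesterol and fatty acid), 3 and 1 (MAPK output) and 0 and 2 (MHC class II). Against Molm-14 they were 36 and 0, 42 and 3, and 18 and 0 in the same order. For cholesterol and fatty acid, MAPK output and class II they were 15 and 2, 2 and 1, and 6 and 0.

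**Figure D5:**
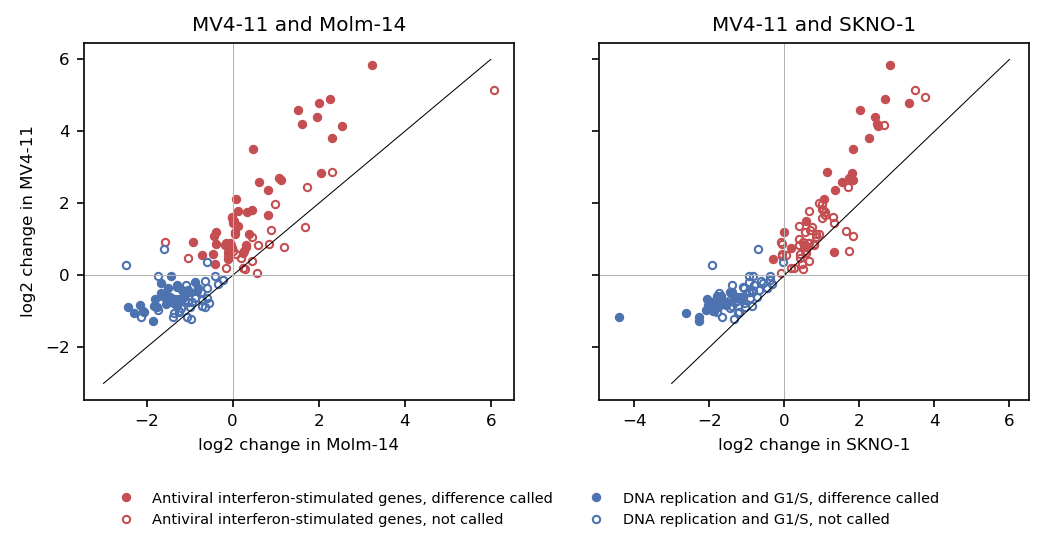
Log2 changes with RMC-4550 in MV4-11 (vertical axis) against Molm-14 (left) and SKNO-1 (right) for antiviral genes (red) and replication genes (blue), filled where the difference between lines was called. Most antiviral genes lie above the line of equal change, with medians of 1.14 against 0.26 and 1.20 against 0.82. Most replication genes, though not all, also lie above it, with medians of -0.63 against -1.25 and -1.30.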

How the data were processed

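Polyadenylated RNA from 6 MV4-11 cultures was sequenced on DNA nanoballs, per the labels' protocols. The authors deposited log2 values for 40184 gene IDs. From the values, each is log2 of reads plus 0.5 per 1e6 of a scaled library, and undoing this gave whole reads (within 0.05) for 100% of values below 300 reads. FastQC, STAR, limma and GRCh38 are named in the submitters' processing notes. The annotation and filters are not given in the sources used here. CPM were computed from the recovered reads, and totals limit the precision of low genes. Symbols matched 40069 IDs. The deposited log2 values were fitted with limma 3.58.1 (R 4.3.3; lmFit, eBayes with trend, two-sided, Benjamini-Hochberg over 14739 genes), on the 6 libraries alone because the spread differs between lines, with and without the mitochondrial share. The moderated tests had 7.37 and 46.5 degrees of freedom, of which 4 and 3 came from a gene's own libraries, so p-values with the share rest mainly on a spread pooled over genes. Differences between lines came from a fit over 18 libraries, for genes with at least 1 CPM in 3 libraries of each line. There the lines share 1 estimate of a gene's spread, so those p-values assume an equal spread that the fit on 6 libraries does not. The fits were run on simulated data with a fixed spread for all genes, as a check of the code and not of the calls reported here.

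The 33 gene lists, the members and the rules were chosen with earlier results of these data known, and 13 listed symbols had no ID in the table. Some genes that the rule names are not reported here. Genes were named by a rule: PTPN11, FLT3, all tested MAPK output and BCL2 family genes, up to 4 called members per direction of each other list at a mean of 5 CPM or more (or the 2 smallest p where none was called), the 12 largest rises and falls, and the 5 largest differences per direction between lines. Alternatives were the replicate block, 18 libraries, log2(CPM + 1), other scalings, filters and weights, and each library left out. Gene positions are from GENCODE 29. Figures used matplotlib 3.10.9.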

Additional observations from a re-analysis of the deposited data

Results flagged for a closer look

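The following genes had the largest called differences between the response of MV4-11 and that of another line, among genes with a mean of at least 5 CPM in a group of MV4-11, and each difference was tested itself. All values are log2 changes, with MV4-11 first. Of the antiviral genes, IFI44 had changes of 4.59 and 1.52, a difference of 3.07 (limma adjusted p 2.5e-05), in MV4-11 and Molm-14. CMPK2 had changes of 3.52 and 0.48, a difference of 3.04 (limma adjusted p 0.00012), and IFIT1 of 4.80 and 2.02, a difference of 2.78 (limma adjusted p 3.4e-06). Against SKNO-1, IFI44L had changes of 5.85 and 2.83, a difference of 3.02 (limma adjusted p 0.00057), IFI44 of 4.59 and 2.02, a difference of 2.57 (limma adjusted p 0.00037) and IFIT3 of 4.90 and 2.68, a difference of 2.22 (limma adjusted p 5.6e-05).

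The potassium channel gene KCNK5 had log2 changes in MV4-11 and Molm-14 of 1.05 and -1.66, a difference of 2.71 (limma adjusted p 0.00022). KCNK5, and GPSM1, LINC01226 and CYP1B1 below, did not pass the test in MV4-11 in the fit of treatment alone (limma adjusted p 0.13, 0.85, 0.43 and 0.078). The kinesin gene KIF17 had changes of 0.72 and -1.98, a difference of 2.71 (limma adjusted p 0.0003). AGXT, a peroxisomal aminotransferase of the liver, rose in MV4-11 from 15.0, 11.6 and 17.5 CPM to 94.2, 76.7 and 84.6 CPM. AGXT had changes of 2.55 and 5.73, a difference of -3.18 (limma adjusted p 0.0076), and its mean level with DMSO was 14.7 CPM in MV4-11 and 1.71 CPM in Molm-14. GPSM1 had changes of 0.08 and 3.21, a difference of -3.13 (limma adjusted p 6.2e-05), LINC01226 of 0.30 and 2.99, a difference of -2.69 (limma adjusted p 5e-05) and GARIN1A of 1.16 and 3.69, a difference of -2.53 (limma adjusted p 0.00051). CYP1B1, a target of the aryl hydrocarbon receptor, had changes of -1.05 and 1.82, a difference of -2.87 (limma adjusted p 2.6e-05).

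Against SKNO-1, OCSTAMP had changes of -2.74 and -7.82, a difference of 5.09 (limma adjusted p 5.6e-05). The mean with RMC-4550 was 1.08 CPM in MV4-11 and 0.0308 CPM in SKNO-1, where it is below 3 reads a library, so that the fitted change there depends on the 0.5 added to reads. CCND1 had changes of -1.17 and -4.40, a difference of 3.24 (limma adjusted p 0.015), with a mean of 1.34 CPM in SKNO-1 with DMSO against 13.5 CPM in MV4-11, and of 0.0616 CPM in SKNO-1 with RMC-4550, also below 3 reads a library. DHRS9, a retinol dehydrogenase, had changes of -0.52 and 2.68, a difference of -3.20 (limma adjusted p 0.00026), and the cannabinoid receptor gene CNR2 of 0.07 and 2.32, a difference of -2.26 (limma adjusted p 0.00052). Neither passed the test in MV4-11 in the fit of treatment alone (limma adjusted p 0.1 and 0.91). In SKNO-1 the mean of DHRS9 went from 0.839 to 5.01 CPM and that of CNR2 from 1.47 to 7.39 CPM. MLPH had changes of -1.95 and 0.40, a difference of -2.35 (limma adjusted p 0.00026), ENC1 of -1.81 and 0.30, a difference of -2.11 (limma adjusted p 0.00022) and GDF15, a stress-induced cytokine, of -1.28 and 0.34, a difference of -1.61 (limma adjusted p 0.001). These 3 genes fell in MV4-11, though MLPH and GDF15 lost that call without RMC-4550 replicate 3 (-1.91 and -1.26), and their means in SKNO-1 with DMSO were 3.29, 3.23 and 1.08 CPM. With the mitochondrial share in the fit over 18 libraries the 20 differences kept their direction and their call.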

How the results depend on the processing

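The counts of genes higher and lower in MV4-11 were 328 and 346. They were 1946 and 3007 with the mitochondrial share, 862 and 1183 in the fit on 18 libraries, 1788 and 3266 there with the share, 3792 and 3543 with array quality weights (gene-by-gene method, since the default did not converge), 1513 and 2225 without the 3 libraries above 10% mitochondrial reads, and 1112 and 1392 without the 3 below. The last 2 fits leave 1 library in an arm, which is assumed to vary like the rest. They were chosen after seeing the data, as were the fits with the share that left out 1 library or used median-ratio scaling. Leaving out 1 library gave 45 to 924 and 20 to 890. The replicate block gave 491 and 544. The labels do not say whether the replicate numbers pair the cultures. Same-numbered deviations from the group mean had r of 0.53, 0.71 and -0.51. Deviations with unlike numbers had r from -0.81 to 0.76, so these values cannot settle whether the numbers mark pairs. With the share, leaving out 1 library gave 602 to 1998 higher and 926 to 3045 lower. Against Molm-14, the counts were 1228 and 1392, with 4373 and 3608 under array quality weights and 650 to 3223 and 747 to 2670 without 1 library. Against SKNO-1 they were 163 and 67, with 780 and 508 with the share, 4578 and 2740 under array quality weights, and 113 to 638 and 45 to 224 without 1 library.

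Of 74 named genes with a call, each kept its direction in each alternative where it was tested. Calls were lost for 12 without a trend, 6 without a filter, 4 with median-ratio scaling, 4 with quantile normalization, 2 in the fit on 18 libraries, 2 with voom weights and 1 with a mean of 5 CPM, and, without 1 library, for 37, 0 and 34 (DMSO replicate 1, 2 and 3) and 19, 40 and 48 (RMC-4550 replicate 1, 2 and 3). No other setting lost one. Signs turned only in genes without a call in the fit of treatment alone: BCL2 (-0.26 with the share, where it was called lower at a limma adjusted p of 0.023, -0.21 on 18 libraries with it, -0.31 without the libraries above 10%, and -0.046 to 0.41 without 1 library), BCL2L2 (-0.052 with the share, -0.019 on 18 libraries with it, -0.10 without the libraries below 10%, and -0.075 to 0.072 without 1 library), BCL2L15 (0.025 with the share, 0.48 without the libraries above 10%, and -0.39 to 0.019 without 1 library), BCL2L1 (-0.054) and MT-ATP8 (0.16) without the libraries above 10%, and, under array quality weights, PTPN11 (0.025), BAK1 (0.062), CNR2 (-0.22), GPSM1 (-0.068) and MCL1 (0.048). Without 1 library, BAD ran from -0.038 to 0.17, BIK from -0.0083 to 0.20, CNR2 from -0.16 to 0.22, GPSM1 from -0.036 to 0.21 and MCL1 from -0.10 to 0.047. Reads per library limit genes near 1 CPM, such as EPSTI1 with DMSO.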

Other observations

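A group that no list held was found among the called genes, the replication-dependent histone genes, whose transcripts mostly lack a poly(A) tail. The group was picked after its values were seen. Of 20 tested, 5 rose and 0 fell, and the median log2 change was 0.75, while replication genes fell. H2AC6 was at 15.1, 19.3 and 15.7 CPM with DMSO and at 55.7, 59.2 and 56.8 CPM with RMC-4550 (log2 change 1.78, SE 0.13, limma adjusted p 0.0011). H2BC12 was at 2.42, 4.25 and 2.87 CPM and at 11.6, 10.9 and 12.5 CPM in the same order, and its call was lost without RMC-4550 replicate 3 (1.85). H2AC11 and H2BC5 rose by 1.29 and 1.38 on the log2 scale, and the fifth was H4C8. H4C3, H2BC8 and H2BC9 had log2 changes of -0.30, -0.14 and -0.36 without a call. With the mitochondrial share 11 of the 20 were called higher and 0 lower. Oligo(dT) selection takes up the polyadenylated forms, so total histone transcripts were not measured, and reads of such similar genes can be split between copies.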
